A study of Mus musculus with 24 samples.

Results

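Mitochondrial ribosomal proteins were described as the protein-coding mouse genes whose GENCODE symbol begins with Mrpl or Mrps and a number. There were 78 of them, 49 named Mrpl and 29 named Mrps, among 35968 genes with a transcript in the tables, of which 21951 were protein-coding. A further 5 genes with matching symbols that are not protein-coding were left out. By the known structure of the mammalian particle, 51 of the 78 products belong to the large subunit, 26 to the small subunit and 1, Mrps36, to neither. RNA had been sequenced from C2C12 cells, a line of mouse myoblasts kept undifferentiated and sparse, 48 h after transfection of siRNA. The groups were siKeap1 (an siRNA to Keap1), siFem1b (an siRNA to Fem1b), siFem1b/Keap1 (both together) and siCont (a non-targeting siRNA), with 3 libraries in each. Every library came from the same cell line, and each target was depleted with a single siRNA sequence. KEAP1 hands the antioxidant factor NRF2 to a CUL3 ubiquitin ligase for degradation, and FEM1B is a substrate receptor of CUL2 ligases that the series links to reductive stress. The labels do not say whether libraries came from separate cultures, so the p-values measure the spread between libraries, which may be technical.

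The mitochondrial ribosome is built in the mitochondrial matrix from rRNAs that the mitochondrial genome encodes and from proteins that nuclear genes encode. It makes the few membrane subunits of the respiratory chain and of ATP synthase that the mitochondrial genome has kept. Many of its proteins descend from bacterial ribosomal proteins, and the rest were gained in the mitochondrial lineage. Some symbols do not match the position of the product: Mrps18a and Mrps30 lie in the large subunit, and Mrps36 is now known as a subunit of the oxoglutarate dehydrogenase complex.

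Libraries held between 31.9 M and 43.0 M estimated counts, and 14577 genes passed the filter on low counts. All 78 genes passed it, and the lowest count of any of them in a library was 125. Keap1 was 6.18-fold lower in siKeap1 than in siCont cells, and Fem1b was 7.32-fold lower in siFem1b than in siCont cells. Markers were given in CPM (a gene's share of the counts of its scaled library, not corrected for length). The 6 of myoblasts summed to 1397 to 1495 CPM in siKeap1, 2046 to 2168 CPM in siFem1b, 1745 to 1799 CPM in siFem1b/Keap1 and 1636 to 1670 CPM in siCont cells. The 4 markers of myotubes (Myog, Ckm, Myh3, Acta1) summed to 14.08 to 14.97 CPM in siKeap1, 141 to 150 CPM in siFem1b, 136 to 149 CPM in siFem1b/Keap1 and 9.17 to 11.8 CPM in siCont cells. The like sums of the groups with the Fem1b siRNA differed in makeup. Myog averaged 4.97 CPM in siFem1b/Keap1 and 59.3 CPM in siFem1b cells. Myh3 averaged 2.47 CPM in siFem1b/Keap1 and 17.65 CPM in siFem1b cells, and Acta1 averaged 132.5 CPM in siFem1b/Keap1 and 64.4 CPM in siFem1b cells. Epithelial, leukocyte, endothelial, fat and neuronal markers summed to at most 8.15 CPM for any of these lists, and Adgre1, a macrophage marker, was at 0 in every library. The sums of the myoblast and myotube lists differed between the groups, as did the results given here, and their part in those results was not tested.

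In siCont cells the 78 transcripts spanned a 35.1-fold range of length-corrected level (TPM, the share of a transcript among all transcripts after division by length). The median of the 78 was 65.5 TPM, against 14.6 TPM over all genes tested. Mrpl52 was highest at 381 ± 34.5 TPM (SD, n = 3), apart from Mrpl33 at 264 ± 19.3 TPM. Mrpl33 overlapped Mrpl42 at 257 ± 4.94 TPM, and Mrps6 followed at 231 ± 15.6 TPM. At the low end stood Mrps30 at 20.8 ± 1.05 TPM, Mrpl48 at 20.6 ± 3.95 TPM, Mrpl23 at 17.7 ± 0.890 TPM and Mrpl1 at 10.9 ± 1.34 TPM. Mrpl1 is the protein of the mobile stalk beside the tRNA exit. Transcripts for the parts of one particle thus stood at very unequal level. The order is firm only in broad terms, since 65 of the 77 neighbouring pairs had overlapping libraries. Large subunit genes had a median of 75.3 TPM and small subunit genes one of 64.0 TPM.

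**Figure D1:**
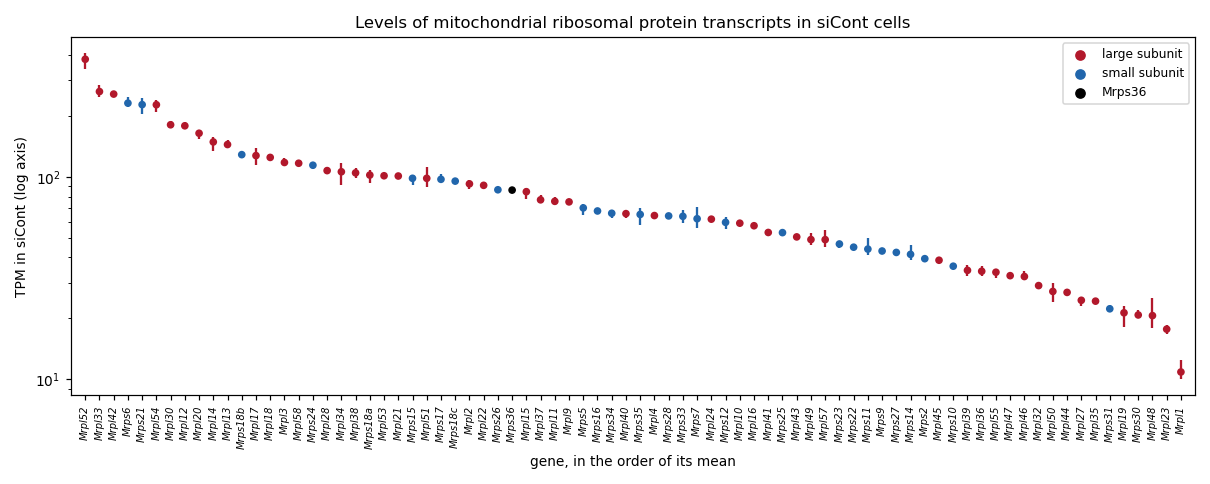
Mean TPM of each of the 78 genes in siCont cells (dots, log axis) with the range of the 3 libraries (lines), coloured by subunit and ordered by mean. Mrpl52 stands alone at 381 TPM and Mrpl1 lowest at 10.9 TPM, and most neighbours overlap.

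Depletion of Fem1b was accompanied by lower transcripts of most of these genes. In siFem1b against siCont cells 51 of 78 fell, 2 rose and 25 did not pass the threshold (adjusted p under 0.05, edgeR). Over all genes tested, 32.1% fell and 30% rose. The median log2 fold change of the 78 was -0.24, a 1.18-fold lower level, against -0.009 over all genes. The changes were small: 35 of the 51 were lower by more than 1.2-fold, and none by as much as 1.6-fold. In 47 genes all 3 siFem1b libraries lay below all 3 siCont libraries, an arrangement that 32.5% of all genes tested showed. In such bulk samples fewer cells of a type and less RNA per cell cannot be told apart.

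**Figure D2:**
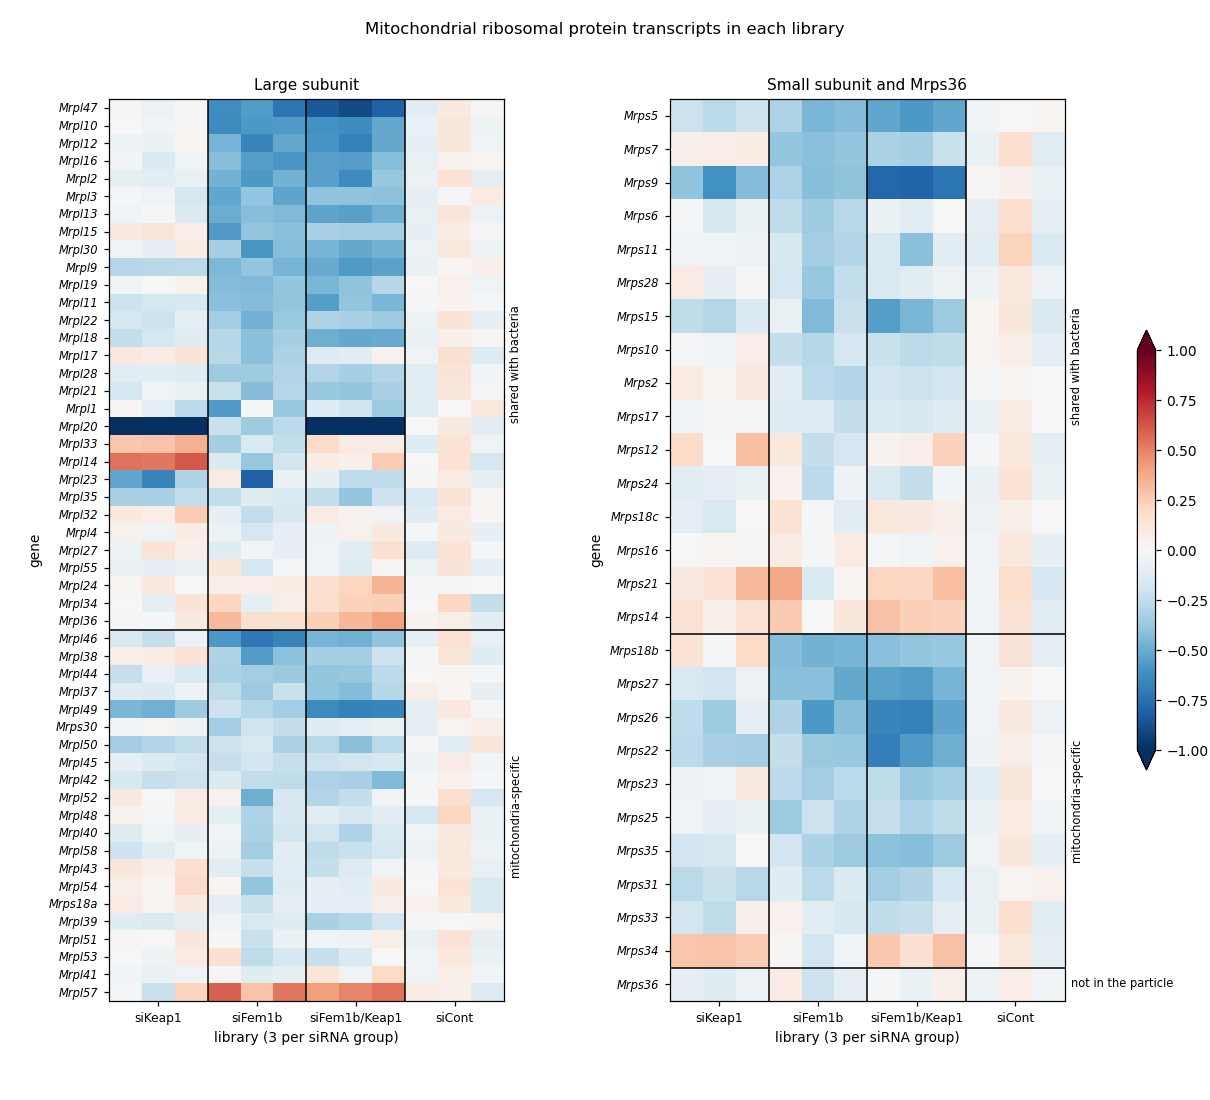
Log2 ratio of CPM in each library to the siCont mean for each gene (colour, blue lower and red higher, full colour at 1 and beyond), by subunit and by whether the protein is shared with bacteria. Within a block genes are ordered by their change in siFem1b against siCont. Blue fills most rows of the siFem1b and siFem1b/Keap1 columns, and Mrpl20 is darkest in both groups that received the Keap1 siRNA.

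Both subunits took part. Of the 51 large subunit genes 33 fell and 2 rose (median log2 fold change -0.24), and of the 26 small subunit genes 18 fell and none rose (median -0.24). Among large subunit proteins shared with bacteria, 22 of 30 fell and 1 rose, with a median of -0.33. Among those found only in mitochondria, 11 of 21 fell and 1 rose, with a median of -0.18. In the small subunit the shared proteins gave 10 falls among 16 genes (median -0.22), and the mitochondria-specific ones 8 among 10 (median -0.29). The difference between these classes was not tested.

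The largest falls in siFem1b cells were those of 5 large subunit genes. Mrpl47, a protein of the rim of the exit tunnel, had 20.4, 21.4 and 19.04 CPM in siFem1b cells, against 29.1, 33.5 and 31.7 CPM in siCont cells. Its log2 fold change was -0.63 (SE 0.059, adjusted p = 2.4e-08). Mrpl46 had 13.3, 12.1 and 12.5 CPM in siFem1b cells, against 18.7, 21.9 and 18.9 CPM in siCont cells (log2 fold change -0.65, SE 0.072, adjusted p = 2.8e-07). Groups did not overlap for either gene. The stalk proteins Mrpl10 and Mrpl12, which recruit the translation factors, fell together. Mrpl10 had 39.3, 40.9 and 41.3 CPM in siFem1b cells, against 58.1, 65.9 and 58.9 CPM in siCont cells, 1.504-fold lower (adjusted p = 7.9e-09). Mrpl12, which also binds the mitochondrial RNA polymerase, had 96.2, 84.3 and 93.3 CPM in siFem1b cells, against 126, 144 and 129 CPM in siCont cells, 1.46-fold lower (adjusted p = 2.5e-07). For both genes the highest siFem1b library was well below the lowest siCont library. Mrpl16, a large subunit protein near the tRNA sites, had 27.4, 25.02 and 24.5 CPM in siFem1b cells, against 34.9, 37.8 and 37.3 CPM in siCont cells (log2 fold change -0.52, adjusted p = 2.2e-07). The other falls lay between -0.50 and -0.15 on the log2 scale.

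The 2 genes that rose in siFem1b cells also encode large subunit proteins. Mrpl57 had 23.0, 18.6 and 22.1 CPM in siFem1b cells, against 16.1, 15.9 and 14.0 CPM in siCont cells, 1.39-fold higher (adjusted p = 0.00066). About as many of its counts were assigned to a retained-intron transcript as to the coding one, and both were higher in siFem1b cells: the retained-intron transcript had 1367 summed counts in siFem1b and 877 in siCont cells, and the coding transcript 1077 in siFem1b and 810 in siCont cells. Mrpl36, a large subunit protein shared with bacteria, had 19.4, 17.3 and 17.3 CPM in siFem1b cells, against 15.8, 16.2 and 14.4 CPM in siCont cells (log2 fold change 0.22, adjusted p = 0.0088). The call for Mrpl36 was lost without siCont replicate 3 (0.17) or siFem1b replicate 1 (0.16 on the log2 scale).

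Genes whose symbols or functions set them apart gave mixed values. The mammalian genome carries 3 relatives of bacterial protein S18. Mrps18b, which sits in the small subunit, fell, with 52.0, 50.5 and 50.8 CPM in siFem1b cells, against 68.4, 76.7 and 65.6 CPM in siCont cells (log2 fold change -0.46, adjusted p = 1.1e-06). Mrps18c, in the small subunit, did not pass the test, with 24.8, 22.1 and 20.8 CPM in siFem1b cells, against 21.5, 23.4 and 22.5 CPM in siCont cells. For Mrps18a, in the large subunit, the log2 fold change was -0.13 and was not called (adjusted p = 0.07). Mrps30 fell by 0.26 on the log2 scale (adjusted p = 0.00016). Mrpl58, a peptidyl-tRNA hydrolase built into the large subunit, which can free stalled ribosomes, was also not called (log2 -0.16, adjusted p = 0.054). Mrps36 had 26.4, 21.5 and 23.3 CPM in siFem1b cells, against 24.1, 26.1 and 24.5 CPM in siCont cells (log2 fold change -0.07, adjusted p = 0.39), and it passed the test in no comparison.

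The size of the shift depended on the unit and on how libraries were scaled. Summed over the 78 genes, siFem1b libraries had 2831, 2605 and 2715 CPM, against 3180, 3504 and 3174 CPM in siCont libraries, a ratio of means of 0.827 with no overlap. Summed deposited TPM were 6494, 6024 and 6356 in siFem1b libraries, against 6685, 6937 and 6439 in siCont libraries, a ratio of 0.941, and the groups overlapped. With limma on log2(TPM + 1), chosen after seeing the data, 31 of 78 genes fell and 7 rose in siFem1b cells. On that scale 18.3% of all genes fell and 33.5% rose, and the median was -0.12 for the 78 genes and 0.08 for all genes. Counts scaled by library totals alone, without TMM, gave medians near these: -0.14 for the 78 genes and 0.09 for all genes. Library siCont replicate 2 had the highest sum on both scales. Without it 44 of the 78 fell by the edgeR test, where 30.0% of all genes fell. The mean fragment length implied by the deposited effective lengths was alike in both groups: 262 to 271 bases in siFem1b and 264 to 272 bases in siCont libraries of the first run, and 298.2 to 298.4 bases in siFem1b and 289 to 300 bases in siCont libraries of the second. Across the 13871 protein-coding genes tested, log2 fold change and transcript length had a Spearman correlation of 0.045, and across the 78 genes one of -0.17.

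The balance of the subunits was looked at through the ratio of their summed levels. The ratio of summed TPM, large to small subunit, was 2.10, 2.19 and 2.24 in siFem1b libraries, against 2.28, 2.25 and 2.31 in siCont libraries. It was 2.14, 2.17 and 2.14 in siFem1b/Keap1 libraries, against 2.30, 2.36 and 2.24 in siKeap1 libraries. In both pairs every library with the Fem1b siRNA lay below every library without it, with the nearest pair at 2.242 in siFem1b and 2.251 in siCont libraries. No test was made on these sums.

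**Figure D3:**
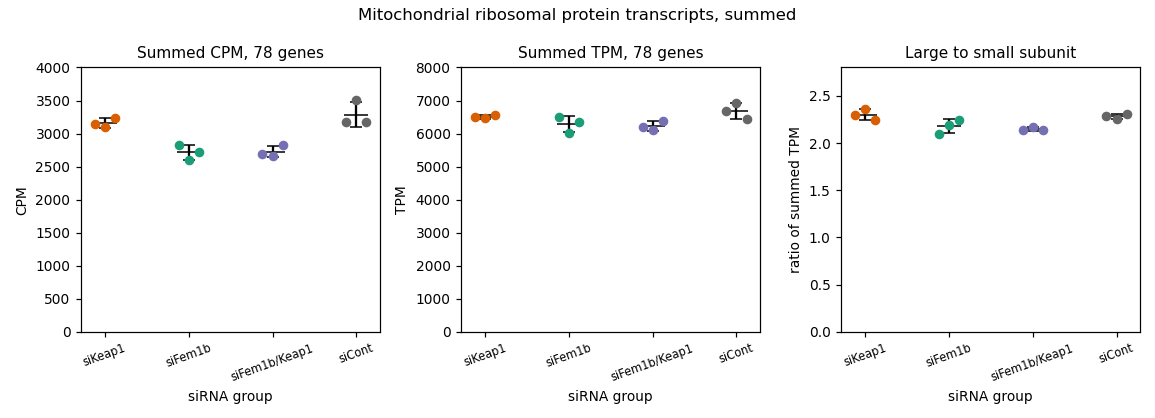
Summed CPM, summed TPM and the ratio of large to small subunit TPM (vertical axes) in each library by siRNA group, with mean and SD of 3 libraries. The siFem1b and siFem1b/Keap1 libraries lie below siCont in CPM, the TPM sums of siFem1b and siCont overlap, and the mean ratio is lower in both groups with the Fem1b siRNA.

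The same siRNA could be examined in cells that also received the Keap1 siRNA, with other libraries on both sides. In siFem1b/Keap1 against siKeap1 cells 42 of 78 genes fell, 4 rose and 32 did not pass, where 31.6% of all genes fell and 32% rose. The median log2 fold change was -0.18, against 0.003 over all genes. All 3 siFem1b/Keap1 libraries lay below all 3 siKeap1 libraries for 47 genes, where 34.6% of all genes did. Of the genes that fell, 41 did so in both comparisons, 80.4% of those in the first and 97.6% of those in the second. Over all genes tested these shares were 81.7% and 82.9%. Across the 78 genes the log2 fold changes of both comparisons had a Pearson correlation of 0.870, and across all genes one of 0.833. No gene of the 78 was called in opposite directions.

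**Figure D4:**
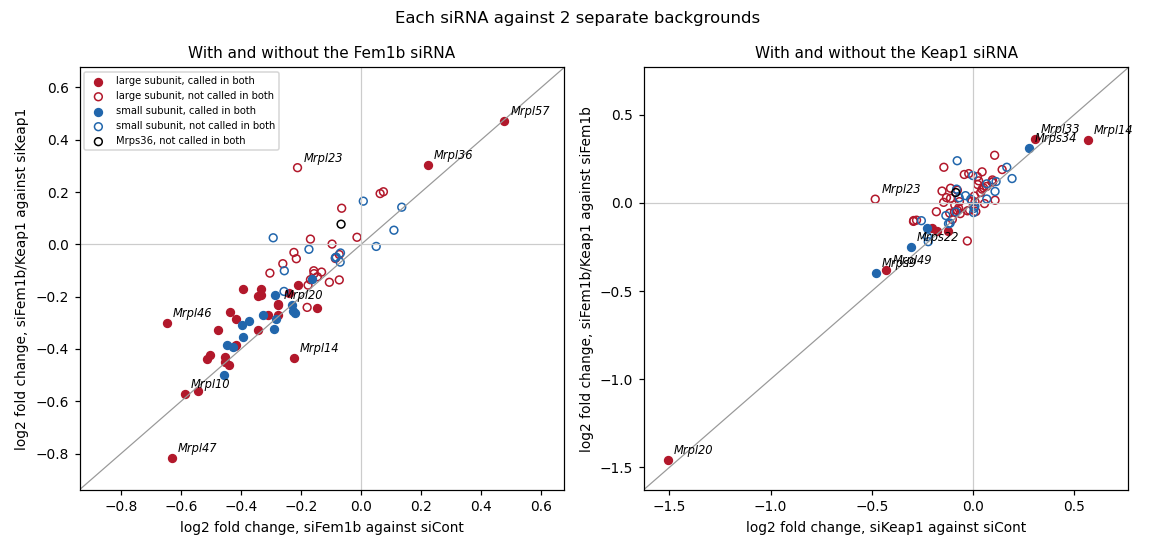
Log2 fold change of each gene for the Fem1b siRNA (left: siFem1b against siCont on the horizontal axis, siFem1b/Keap1 against siKeap1 on the vertical) and for the Keap1 siRNA (right: siKeap1 against siCont, and siFem1b/Keap1 against siFem1b). Filled dots passed the test in both comparisons, and the grey line marks equal change. Most genes lie below 0 on both axes at left, while at right most lie near 0 and Mrpl20 stands alone at -1.51 and -1.46.

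Mrpl47 had the largest fall in siFem1b/Keap1 against siKeap1 cells, with 17.5, 16.9 and 17.98 CPM in siFem1b/Keap1 cells, against 31.1, 30.2 and 31.1 CPM in siKeap1 cells, 1.76-fold lower (adjusted p = 7.4e-10). Mrpl10 fell by 0.57 and Mrpl12 by 0.56 on the log2 scale. Mrps18b fell by 0.50 and Mrpl30, a protein of the large subunit, by 0.46. The genes that rose were Mrpl57 (log2 fold change 0.47), Mrpl36 (0.30), Mrpl24 (0.19) and Mrps18c (0.17, adjusted p = 0.031). Under limma on deposited TPM 24 fell and 10 rose, where 20.18% of all genes fell and 34.18% rose.

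Depletion of Keap1 alone left most of these transcripts near their siCont level, with 1 large exception. In siKeap1 against siCont cells 19 of 78 genes fell and 3 rose, and 56 did not pass. This is close to the share of all genes that fell, 23.8%, and below the share that rose, 18.4%. The median log2 fold change was -0.05, against -0.02 over all genes. Without siCont replicate 2 the falls numbered 12 and the rises 6, where 22.2% of all genes fell and 17.1% rose.

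That exception was Mrpl20, whose bacterial counterpart is an early assembly protein of the large subunit. It had 19.5, 18.6 and 19.8 CPM in siKeap1 cells, against 55.1, 58.5 and 51.2 CPM in siCont cells, 2.84-fold lower (log2 fold change -1.51, SE 0.06, adjusted p = 3.1e-13). With the Fem1b siRNA present it had 15.9, 15.8 and 17.6 CPM in siFem1b/Keap1 cells, against 47.0, 42.8 and 45.8 CPM in siFem1b cells, 2.75-fold lower (adjusted p = 1.3e-12). Every library with the Keap1 siRNA thus lay far below every library without it. The next largest falls called in siKeap1 cells were of 0.48 on the log2 scale. Its main transcript carried 93.96% of the counts of the gene in siKeap1 cells and 96.33% in siCont cells.

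The gene lies on chromosome 4, bases 155802878 to 155809975 of GRCm38, plus strand. Near the end of the 3' UTR of its main transcript of 764 bases, at bases 707 to 713, stood a match to the seed of the Keap1 siRNA (the 7 bases that pair with guide positions 2 to 8). The siRNAs and the site are shown because the largest change of the 78 genes fell on a gene that holds this match. In the siRNAs, given as the sense strand, and in the transcript, capitals mark the seed match.
siKeap1 sense strand: gcgccaauguuGACACGGa
siFem1b sense strand: gaagaucagugCAGAAUUa
Mrpl20 site: ctttattcagtGACACGGc
Mrpl19 site: gcatcggctgtGACACGGt
Mrps16 site: aggaatcctcaGACACGGg
The Mrpl20 site continued for 1 base beyond the seed, a run of 8 bases. Of the 78 main coding transcripts, 5 held this 7-base match in the 3' UTR (6.41%), against 332 of 13871 protein-coding genes tested (2.39%). The other 4 were Mrpl19, Mrpl43, Mrps16 and Mrps35, of which none was called in siKeap1 against siCont cells. Mrpl19, also with a run of 8 bases, had a log2 fold change of 0.007, and Mrps16 one of 0.003. Over all protein-coding genes tested with a match in the 3' UTR, 156 of 332 fell (47.0%) with a median of -0.17, against 23.0% of the genes with no match. A processed Mrpl20 transcript without the match had summed counts of 58 in siKeap1, 141 in siFem1b, 50 in siFem1b/Keap1 and 144 in siCont cells. Other transcripts without it had few counts and were not lower with the Keap1 siRNA alone. A minor coding transcript had 18 in siKeap1, 4 in siFem1b, 9 in siFem1b/Keap1 and 9 in siCont cells. A transcript annotated for nonsense-mediated decay had 23 in siKeap1, 20 in siFem1b, 19 in siFem1b/Keap1 and 15 in siCont cells. A part of the match in the fall of Mrpl20 was not tested.

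**Figure D5:**
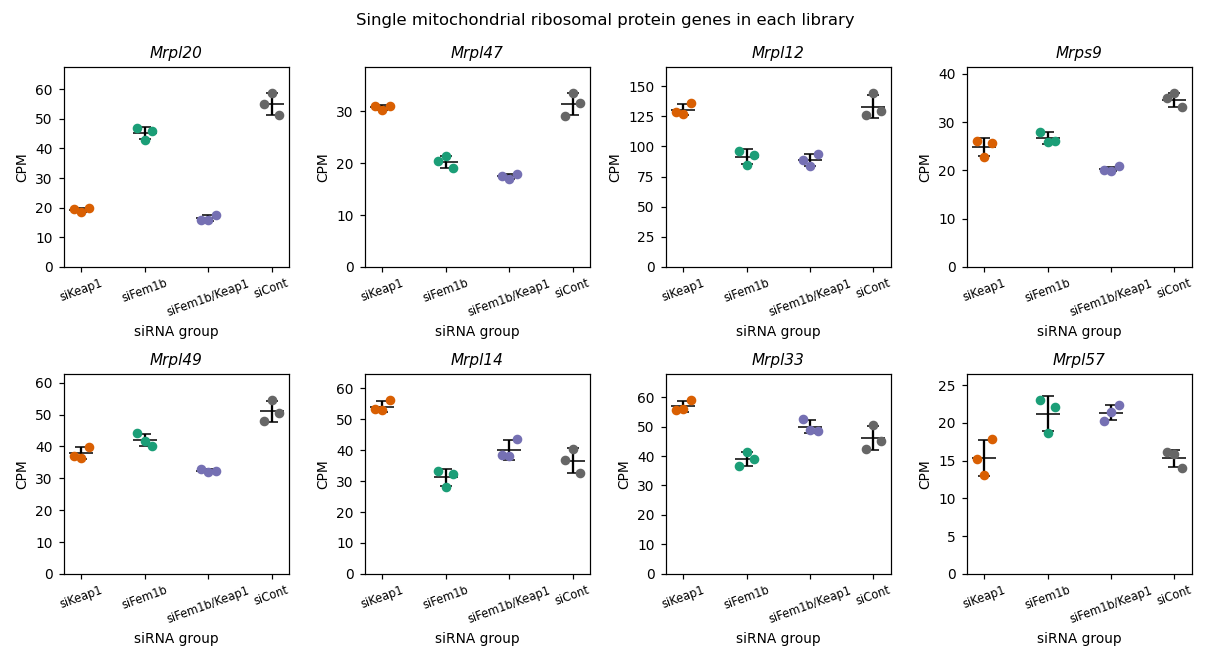
CPM of 8 genes in each library by siRNA group, with mean and SD of 3 libraries. Mrpl20 is low in both groups with the Keap1 siRNA, Mrpl47 and Mrpl12 in both groups with the Fem1b siRNA, Mrps9 and Mrpl49 are lowest with both siRNAs, Mrpl14 and Mrpl33 are highest in siKeap1, and Mrpl57 is higher with the Fem1b siRNA.

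Mrps9, Mrpl49 and Mrps22 fell with either siRNA. Mrps9, a protein of the small subunit head, had 26.2, 22.7 and 25.7 CPM in siKeap1 cells, against 35.0, 36.0 and 33.1 CPM in siCont cells (log2 fold change -0.48, adjusted p = 1.9e-06). In siFem1b/Keap1 cells it had 20.1, 19.95 and 20.8 CPM, against 28.1, 25.8 and 26.2 CPM in siFem1b cells (log2 fold change -0.40, adjusted p = 2.8e-05). Libraries of all 3 depleted groups lay below those of siCont, and those of siFem1b/Keap1 were lowest. Mrpl49, a mitochondria-specific protein of the large subunit, had 37.1, 36.5 and 39.9 CPM in siKeap1 cells, against 48.0, 54.4 and 50.6 CPM in siCont cells (log2 fold change -0.43, adjusted p = 2.5e-06). Mrps22, of the small subunit, fell by 0.31 on the log2 scale (adjusted p = 0.0003). Mrpl23 was also called, with 4.25, 3.86 and 4.95 CPM in siKeap1 cells, against 6.13, 6.47 and 5.69 CPM in siCont cells (log2 fold change -0.48, adjusted p = 0.031). This call rests on few counts, and 77.0% of the 31-base words of its transcript recur in a pseudogene.

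The genes that rose with Keap1 depletion were Mrpl14, Mrpl33 and Mrps34. Mrpl14, which lies at the subunit interface where an assembly factor binds, had 53.4, 52.8 and 56.1 CPM in siKeap1 cells, against 36.7, 40.5 and 32.5 CPM in siCont cells, 1.48-fold higher (adjusted p = 1.8e-05). Much of this came from a processed transcript with no coding sequence, which had 1831 summed counts in siKeap1 cells, against 491 in siCont cells. The coding transcript had 4017 summed counts in siKeap1 cells, against 3502 in siCont cells. Mrpl33 had 55.7, 56.0 and 58.9 CPM in siKeap1 cells, against 42.5, 50.7 and 45.1 CPM in siCont cells (log2 fold change 0.31, adjusted p = 0.00039). Mrps34, a small subunit protein, had 37.0, 37.2 and 36.3 CPM in siKeap1 cells, against 30.1, 32.9 and 28.6 CPM in siCont cells (log2 fold change 0.28, adjusted p = 0.001). Of its exon bases, 63.4% lie opposite to Mapk8ip3, and the labels do not say that strand was kept, so the reads of such a pair cannot be told apart.

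With the Fem1b siRNA in both groups, siFem1b/Keap1 against siFem1b cells, 9 of 78 genes fell and 9 rose, where 21.8% of all genes fell and 21.3% rose. The largest rises were those of Mrpl33 (log2 fold change 0.36), Mrpl14 (0.36), Mrps34 (0.31), Mrpl17 (0.27) and Mrps6 (0.24). After Mrpl20, the largest falls were those of Mrps9 (-0.40), Mrpl49 (-0.38), Mrps22 (-0.25) and Mrpl47 (-0.22). Of the genes that fell with the Keap1 siRNA, 8 did so in both comparisons, 42.1% of the 19 without and 88.9% of the 9 with the Fem1b siRNA. All 3 that rose without it also rose with it. Over all genes tested, the falls shared were 64.9% of those without and 70.9% of those with the Fem1b siRNA, and 67.5% of the rises without it recurred with it. Without siFem1b replicate 1 the counts became 5 falls and 14 rises, where 19.8% of all genes fell and 18.9% rose.

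Cells with both siRNAs, set against siCont cells, had 45 of 78 genes lower and 5 higher, where 33.7% of all genes fell and 33.8% rose. The median log2 fold change was -0.23, against 0.005 over all genes. Mrpl20 fell most, 3.34-fold (adjusted p = 1.9e-14). It was followed by Mrpl47 at -0.85, Mrps9 at -0.77, Mrpl49 at -0.66 and Mrps26 at -0.62 on the log2 scale. For Mrps26, 76.4% of the counts over all libraries were assigned to a retained-intron transcript. Its coding transcript had 1011 summed counts in siFem1b/Keap1 and 1545 in siCont cells. The rises were those of Mrpl57 (log2 fold change 0.48), Mrpl36 (0.33), Mrps14 (0.26), Mrps34 (0.24) and Mrpl24 (0.24). For Mrps14, a small subunit protein, 56.3% of the counts over all libraries were assigned to a transcript annotated for nonsense-mediated decay. Summed over the 78 genes, siFem1b/Keap1 libraries had 2693, 2662 and 2824 CPM, against 3180, 3504 and 3174 CPM in siCont libraries. Without siCont replicate 2 the rises numbered 8, where 32.1% of all genes rose.

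Whether the change with the Keap1 siRNA differed between cells with and without the Fem1b siRNA was tested as an interaction. It is the log2 fold change of siFem1b/Keap1 against siFem1b less that of siKeap1 against siCont. It was called positive for 2 of the 78 genes and negative for none, where 6.11% and 5.32% of all genes were called. The 2 genes were Mrps6 (log2 0.32, SE 0.088, adjusted p = 0.027) and Mrpl46 (log2 0.35, SE 0.1, adjusted p = 0.034). Next by p-value, and not called, were Mrpl9 (log2 0.18, adjusted p = 0.059) and Mrps30 (log2 0.19, adjusted p = 0.1). Mrps6, a small subunit protein shared with bacteria, had 93.8, 84.4 and 89.9 CPM in siKeap1, 79.2, 73.8 and 77.8 CPM in siFem1b, 90.02, 87.7 and 94.9 CPM in siFem1b/Keap1 and 88.6, 106 and 88.6 CPM in siCont cells. All siFem1b libraries lay below all others. The number called ran between 0 and 4 as single libraries were left out: 4 without siCont replicate 1, 1 without siCont replicate 2, siKeap1 replicate 1 or 3 or siFem1b/Keap1 replicate 2, and 0 without siKeap1 replicate 2, siFem1b replicate 2 or 3 or siFem1b/Keap1 replicate 1 or 3. With the replicate number as a block 0 were called. Over all genes, 3.35 to 5.89% were called positive with 1 library left out, and 5.40% with the block.

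Genes that act with the particle mostly fell too in siFem1b against siCont cells, where 32.1% of all genes fell and 30% rose. Of 5 particle proteins without an Mrp symbol 3 fell, among them Ptcd3, a small subunit protein, with 58.9, 66.6 and 62.7 CPM in siFem1b cells, against 86.9, 84.7 and 85.5 CPM in siCont cells (adjusted p = 4.4e-07). The other 2 falls were of Chchd1 (-0.30) and Gadd45gip1 (-0.25) on the log2 scale. Of 25 assembly and rRNA factors 17 fell (68%) and 1 rose (median log2 fold change -0.26). Trub2, a mitochondrial pseudouridine synthase, had 19.9, 23.0 and 22.4 CPM in siFem1b cells, against 40.7, 41.5 and 39.8 CPM in siCont cells, 1.87-fold lower (adjusted p = 5.5e-11). Rcc1l and Ngrn, which are needed for stable mitochondrial rRNA, fell by 0.68 and 0.56 on the log2 scale. Of 15 translation and mRNA factors 10 fell (66.7%) and none rose (median -0.24), with Slirp at -0.72, the elongation factor Gfm1 at -0.44 and Lrpprc, the partner of Slirp in mRNA stability, at -0.40. Of 17 mitochondrial aminoacyl-tRNA synthetases 13 fell (76.5%) and none rose (median -0.33), with Mars2 1.89-fold, Yars2 1.62-fold and Tars2 1.36-fold lower.

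In mitochondrial transcription and its regulators, 9 of 13 genes fell (69.2%) and 2 rose. Tfam, which packages mitochondrial DNA and starts its transcription, had 33.3, 37.5 and 33.6 CPM in siFem1b cells, against 56.2, 60.0 and 61.3 CPM in siCont cells, 1.70-fold lower (adjusted p = 4.2e-10). Myc, a transcription factor that promotes ribosome production, had 46.7, 41.2 and 43.0 CPM in siFem1b cells, against 88.4, 87.9 and 85.8 CPM in siCont cells, 2.00-fold lower (adjusted p = 1.5e-12). The coactivator Pprc1 was 1.46-fold lower. Nrf1 averaged 38.8 CPM in siFem1b and 55.7 CPM in siCont cells, Gabpa 83.9 and 103 CPM, and Yy1 111 and 139 CPM. Means were higher in siFem1b than in siCont cells for Esrra (41.5 and 34.8 CPM) and Ppargc1b (12.2 and 11.4 CPM). The same held for Ppargc1a, at a low level (1.62 and 0.689 CPM). Of the 13 coding genes of the mitochondrial genome itself 4 rose (30.8%, near the 30% of all genes) and none was called lower in siFem1b cells. Of the 9 not called, 5 had negative log2 fold changes, down to -0.38 for mt-Co2 (adjusted p = 0.21). In siFem1b/Keap1 against siCont cells 7 rose (53.8%, against 33.8% of all genes) and none was called lower. For siFem1b against siCont cells the smallest p-value of the 13 was that of mt-Nd4, a complex I subunit. It had 1667, 1743 and 1594 CPM in siFem1b cells, against 1393, 1269 and 1410 CPM in siCont cells (log2 fold change 0.30, adjusted p = 0.0016). After it came mt-Nd6 (0.27) and mt-Nd5 (0.20), which overlap on opposite strands of a polyadenylated library of unstated strand. The mitochondrial rRNAs were not analysed here.

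A wider look set the cytosolic ribosome and complex I beside these genes. Of 76 cytosolic ribosomal protein genes tested 65 fell (85.5%) and none rose in siFem1b against siCont cells, with a median log2 fold change of -0.33. In siKeap1 against siCont cells none of the 76 fell and 2 rose, where 23.8% of all genes fell and 18.4% rose. Of 36 nuclear complex I subunits 10 rose (27.8%, near the 30% of all genes) and 4 fell (11.1%, against 32.1%) in siFem1b cells, with a median of 0.007. The difference between the lists was not tested.

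Seed matches of the Fem1b siRNA were counted in the same way. Of the 78 transcripts 5 held a match in the 3' UTR (6.41%), against 11.96% of all protein-coding genes tested, and all 5 fell in siFem1b against siCont cells, with a median log2 fold change of -0.43. Those were Mrps2, Mrpl15, Mrpl35, Mrpl47 and Mrps26. Of the 68 with no match anywhere 44 fell, 64.7%, and their median log2 fold change of -0.24 was that of all 78. Over all protein-coding genes tested, 44.2% of those with a 3' UTR match fell, against 30.3% of those with no match. Mrpl47 and Mrpl44 are shown because they hold the 2 longest runs of bases shared with the siRNA among the genes that fell, 9 bases in the 3' UTR of Mrpl47 and 13 in the coding part of Mrpl44, with the seed match in capitals.
Mrpl47 site: ggaagaaacagCAGAATTa
Mrpl44 site: gaccctcagtgCAGAATTt
Mrpl44, a large subunit protein related to RNase III, fell by 0.34 on the log2 scale (adjusted p = 3.5e-05). A part of these matches in the falls was not tested.

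Promoters were looked at because so many of these genes moved together. RefSeq windows on GRCm38, from 250 bases before to 50 bases after the start, were found for 69 of the 78 genes. Both strands were searched for 4 motifs. Matches of different motifs did not overlap in these windows, while NRF1 matches on opposite strands overlapped each other in Mrpl9, Mrpl32 and Mrpl39, and each gene was counted once. The ETS motif of GABPA, CCGGAAG, stood in 26 of 69 (37.7%), against 18.7% of the 10825 genes tested that have a window. The motif of NRF1, GCGCATGCG, stood in 7 (10.1%, against 3.83%), that of YY1, AAGATGGCG, in 8 (11.6%, against 3.30%), and the core of the antioxidant response element, TGACNNNGC, in 14 (20.3%, against 16.3%). GABPA, NRF1 and YY1 are known activators of nuclear genes for mitochondrial proteins, and the last motif is bound by NRF2. Of the 26 genes with the ETS motif 12 fell in siFem1b against siCont cells, and of the 43 without it 33 fell. Falls numbered 5 of the 7 genes with the NRF1 motif, 5 of the 8 with that of YY1 and 9 of the 14 with the antioxidant core. The share of all genes with each motif that fell was not counted. No difference between genes with and without a motif was tested. Neither Mrpl14 nor Mrpl20 had the antioxidant core in its window. For some genes the RefSeq start lies far from the GENCODE start, by 850 bases for Mrpl47 and 17016 bases for Mrpl33, and nothing is read from a missing match. The bases before the start are shown for Mrpl10, with an NRF1 match, and for Mrps22, with an ETS match, as examples among the genes that fell, with the match in capitals. The Mrpl10 match reads GCGCATGCG on the opposite strand.
Mrpl10, chr11:97041332-97041581, plus strand: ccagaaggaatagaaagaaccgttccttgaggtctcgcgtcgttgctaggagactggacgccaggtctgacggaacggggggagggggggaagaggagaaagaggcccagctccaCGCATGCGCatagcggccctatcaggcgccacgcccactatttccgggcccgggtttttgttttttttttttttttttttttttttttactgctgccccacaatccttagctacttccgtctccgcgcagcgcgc
Mrps22, chr9:98601680-98601929, minus strand: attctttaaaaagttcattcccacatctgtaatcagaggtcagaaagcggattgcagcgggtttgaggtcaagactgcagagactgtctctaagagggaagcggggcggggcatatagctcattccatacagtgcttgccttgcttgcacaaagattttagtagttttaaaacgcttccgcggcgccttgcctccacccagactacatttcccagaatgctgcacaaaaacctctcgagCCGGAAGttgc

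Some of these values rest on reads that other genes could share. Of the 78 main coding transcripts, 27 had no 31-base word in another listed gene and 32 had more than 10% of them. Mrpl53 shared all of its words with an overlapping readthrough gene, and Mrpl23, Mrps25, Mrps34 and Mrpl27 shared more than 50%. Exons of 28 genes overlapped a gene on the opposite strand. Of the genes described most fully, Mrps9, Mrps22, Mrpl16, Mrpl33 and Mrpl46 shared no word, Mrpl20 shared 3.95%, Mrpl14 12.7% and Mrpl47 20.3% of them. Mrps6 shared 33.8%, mainly with the overlapping gene Gm49711, and Mrps18b 33.9%.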

How the data were processed

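Poly(A)-selected RNA was measured in 12 libraries, each sequenced in 2 runs. The submitters' processing notes name kallisto 0.44.0 and mm10; trimming and strand settings are not given in the sources used here. The 24 deposited tables hold estimated counts and TPM for 118489 transcripts. Of these, 116728 (98.5%) matched GENCODE M21 (GRCm38) by identifier and length. Estimated counts deposited by the authors were summed per gene and over both runs and rounded. TPM deposited by the authors were summed per gene and averaged over runs, weighted by counts.

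The quasi-likelihood test of edgeR 4.0.16 (R 4.3.3, filterByExpr, TMM factors 0.952 to 1.04, all 12 libraries) was used, 2-sided, with Benjamini-Hochberg adjustment over the 14577 genes and a threshold of 0.05. It was also run on simulated data in which few genes changed, in the siKeap1 group alone. Far more genes were called in these data, so that run does not show how the test behaves here. CPM use TMM-scaled library sizes. SE is the standard error of a log2 fold change implied by the edgeR test. It was computed as the size of that change divided by the square root of the F statistic. Counts limit precision through counting error.

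Alternatives were DESeq2 1.42.0 (size factors or Wald test), library totals alone, no filter, each run alone, a replicate block, the compared groups alone, each library left out and, after seeing the data, limma 3.58.1 on log2(TPM + 1). Genes were named by rule: up to 5 largest rises and falls per pairwise comparison, 4 smallest p of the interaction, 4 highest and 4 lowest in siCont, 7 of special function, and 3 smallest p per list. Esrra, Ppargc1a, Ppargc1b, Nrf1, Gabpa and Yy1 were named beside those of the rule. Members and lists were chosen with earlier results of these data known. Promoter sequences are from RefSeq (GRCm38.p6). Seed matches were searched in 1 main protein-coding transcript a gene (GENCODE M21).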

Additional observations from a re-analysis of the deposited data

Results flagged for a closer look

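Mrps6 and Mrpl46 were the 2 genes of the 78 whose change with the Keap1 siRNA differed between cells with and without the Fem1b siRNA, by the test of that difference itself. The interaction was 0.32 on the log2 scale for Mrps6 and 0.35 for Mrpl46. For Mrps6, siKeap1 against siCont gave -0.08 and siFem1b/Keap1 against siFem1b gave 0.24. For Mrpl46 they gave -0.14 and 0.20. For Mrps6 the call was lost in the second run alone, without siKeap1 replicate 2 or 3, without siFem1b replicate 2 or 3, and without siFem1b/Keap1 replicate 1 or 3, with values from 0.25 to 0.32. For Mrpl46 it was lost in the first run alone (0.20) and without siCont replicate 2, siKeap1 replicate 1 or 2, siFem1b replicate 2 or 3, or any siFem1b/Keap1 library, with values from 0.27 to 0.36. Both calls were lost with the replicate block, with adjusted p = 0.055 for each by edgeR. The direction was positive in every alternative run.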

How the results depend on the processing

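With the Fem1b siRNA the median log2 fold change of the 78 genes stayed negative under every alternative run. Direction was compared gene by gene for the 32 named genes alone. The number of falls moved by more than 1.5 times only with limma on deposited TPM, chosen after seeing the data. It was then 31 in siFem1b against siCont and 24 in siFem1b/Keap1 against siKeap1 cells. Over all genes, 18.3% and 20.18% fell in these comparisons with that alternative. That alternative gave 7 rises in siFem1b and 12 in siFem1b/Keap1 against siCont, and 10 in siFem1b/Keap1 against siKeap1 cells; the cause was not tested. Library totals alone gave 5, 14 and 8 rises in the same 3 comparisons. That scaling moved the median of all genes to 0.09, 0.13 and 0.10, and made 60.6%, 62.1% and 61.7% of all calls rises, against 48.3%, 50.1% and 50.3% with TMM. With library totals 40, 37 and 31 of the 78 still fell, where 24.3%, 25.7% and 24.2% of all genes fell. The shares of all genes that rose with library totals were 37.4%, 42.1% and 39.0%. With deposited TPM rises made 64.6%, 58.9% and 62.9% of all calls, and 33.5%, 34.5% and 34.2% of all genes rose.

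The first run alone gave 6 rises and 11 falls in siKeap1 against siCont cells, where 17.42% of all genes rose and 17.28% fell. It gave 2 rises in siFem1b/Keap1 against siKeap1 cells, where 28.02% of all genes rose. Each run alone gave 1 positive interaction. Over all genes, 2.425% were called positive in the first run and 3.798% in the second. Without a filter there were 8 rises in siFem1b/Keap1 against siCont cells, where 20.68% of all genes rose. Fits of the compared groups alone gave 5 rises in siKeap1 against siCont and 7 in siFem1b/Keap1 against siKeap1 cells. Over all genes, 21.64% and 34.21% rose in these fits.

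Leaving out each library in turn gave 3 to 6 rises and 12 to 18 falls in siKeap1 against siCont, 1 to 3 and 44 to 57 in siFem1b against siCont, 5 to 8 and 42 to 47 in siFem1b/Keap1 against siCont, 3 to 4 and 38 to 45 in siFem1b/Keap1 against siKeap1, 6 to 14 and 5 to 13 in siFem1b/Keap1 against siFem1b cells, and 0 to 4 positive and 0 negative interactions. Over all genes, 15.7 to 17.1% rose and 20.2 to 22.2% fell in siKeap1 against siCont. The like shares were 27.5 to 29.1% and 28.95 to 30.5% in siFem1b against siCont. They were 31.4 to 32.2% and 31.45 to 32.2% in siFem1b/Keap1 against siCont. For siFem1b/Keap1 against siKeap1 they were 27.8 to 29.5% and 28.95 to 31.15%, and against siFem1b 17.1 to 19.3% and 18.9 to 21.8%. The interaction was positive for 3.35 to 5.89% and negative for 4.04 to 7.85%.

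For libraries with the same replicate number the correlations of their deviations ran from -0.078 to 0.117. The labels do not say what the numbers stand for, and such small correlations cannot exclude a weak shared effect. The replicate block left 0 positive interactions and moved no other count by more than 1.5 times. For the 32 named genes, 3040 alternative values of 192 results held 2883 with the same call, 92 that lost and 65 that gained one, and 0 that turned round.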
